A study of Mus musculus with 12 samples.

Results

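Poly(A) sites whose signal differs from the canonical hexamer at base 5 were described in a catalogue of RNA 3' ends from mouse embryonic stem cells. A site belonged to this class when the hexamer listed for it matched AATAAA, the most frequent hexamer of the catalogue, at every base but base 5. All listed distances were kept and the mitochondrial genome was left out. The rule found 6447 sites of 145099, and of 129401 with a hexamer. They are called base 5 sites here.

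The catalogue came from Exosc3 CKO cells, clones of V6.5 embryonic stem cells with a conditional knockout of Exosc3, a subunit of the RNA exosome, held in doxycycline at 0.1 μg/ml. The series held 12 libraries in 6 groups of 2, and which of the libraries entered the catalogue is not stated. Of the groups, 1 was taken off doxycycline (dox-, Exosc3-) and 1 was kept in it (dox+, Exosc3+) for 3 days. The other 4 groups were dox- or dox+ for 2 days and were nucleofected with 15 μM of U1 AMO, an antisense oligonucleotide against U1 snRNP, or with Scr AMO, a scrambled control, 8 hours before RNA was taken. The 3' ends of poly(A) RNA were read by 2P-seq, which sequences from the poly(A) tail. The file lists sites for the series as a whole, and 0 of its 7 columns hold a value per library. Effects of Exosc3 loss or of U1 AMO, the level of any site, the depth of any library and the markers of the cell type were therefore not analysed here.

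The poly(A) signal is a hexamer upstream of the cleavage site. It is bound through the CPSF30 and WDR33 subunits of the cleavage and polyadenylation specificity factor, and one-base variants of AATAAA are known to be used at many mammalian sites, in general less efficiently. A variant that works as a signal is found at a narrow range of distances from the cleavage site, whereas a chance match can lie at any distance. The 3 variants changed at base 5 are printed below beside the canonical signal, with the changed base in capitals, because all comparisons turn on that base.
C at base 5: aataCa
T at base 5: aataTa
G at base 5: aataGa
canonical: aataaa

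All 3 possible changes at base 5 were listed, and C was the most frequent. AATACA was listed for 2831 sites, which was 2.19% of sites with a hexamer (95% Wilson interval 2.11 to 2.27%). AATATA was listed for 2659 sites (2.05%, interval 1.98 to 2.13%) and AATAGA for 957 (0.740%, interval 0.694 to 0.788%). G was thus the rarest base, with 14.8% of the base 5 sites, against 43.9% for C and 41.2% for T. AATAAA itself was listed for 65222 sites. These intervals, like all intervals over sites below, cover counting error only and treat neighbouring sites as independent, which they are not.

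The order of bases differed between positions of the hexamer. T led at bases 1 and 2 and G at bases 3 and 4, while C led at base 5, where the intervals of C and T overlapped. At base 4 only G and T were listed and at base 6 only T, so C could not lead there. Of the 15 one-base variants listed, AATACA had rank 5 by number, AATATA rank 7 and AATAGA rank 12. Together the base 5 sites numbered 6447, against 11064 for changes at base 1, 6392 at base 2 without ATTAAA, 6336 at base 3, 2295 at base 4 and 450 at base 6. ATTAAA, with 22394 sites, is the main variant and was kept apart. The number of sites with a variant also depends on how often its letters occur in the genome and on which hexamers were searched first, neither of which was analysed here.

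Some hexamers of the list can overlap in the genome, which bears on such counts. AATATA followed by a pair of A holds TATAAA at an offset of 2 nt, in the stretch aaTATAAA, whose capitals mark the second hexamer. That hexamer was listed for 6404 sites, and a site with that stretch can count for either hexamer. No hexamer of the list can start within 3 nt downstream inside AATACA or AATAGA. At an offset of 4 nt some can, such as CATAAA (2775 sites) in AATACA and GATAAA (1885 sites) in AATAGA. The canonical signal can begin at the last base of each of the 3, at an offset of 5 nt. Overlaps on the upstream side are also possible for all 3. AAAATA, listed for 657 sites, can start 2 nt upstream of each, and the canonical signal 4 nt upstream.

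Base 5 sites were found on all autosomes at similar shares. Autosomes held 6241 of them, the X chromosome 195, unplaced sequence 11 and the Y chromosome 0. They made up 5.00% ± 0.328 (SD, n = 19 autosomes) of the sites with a hexamer on each autosome. The lowest share was 4.48% on chromosome 17 and the highest 5.60% on chromosome 19, and the X chromosome had 4.99% (interval 4.35 to 5.72%). The plus strand held 3317 and the minus strand 3130, so 51.5% were on the plus strand (interval 50.2 to 52.7%). AATAAA sites were on the plus strand in 50.2% of cases (interval 49.9 to 50.6%).

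**Figure D1:**
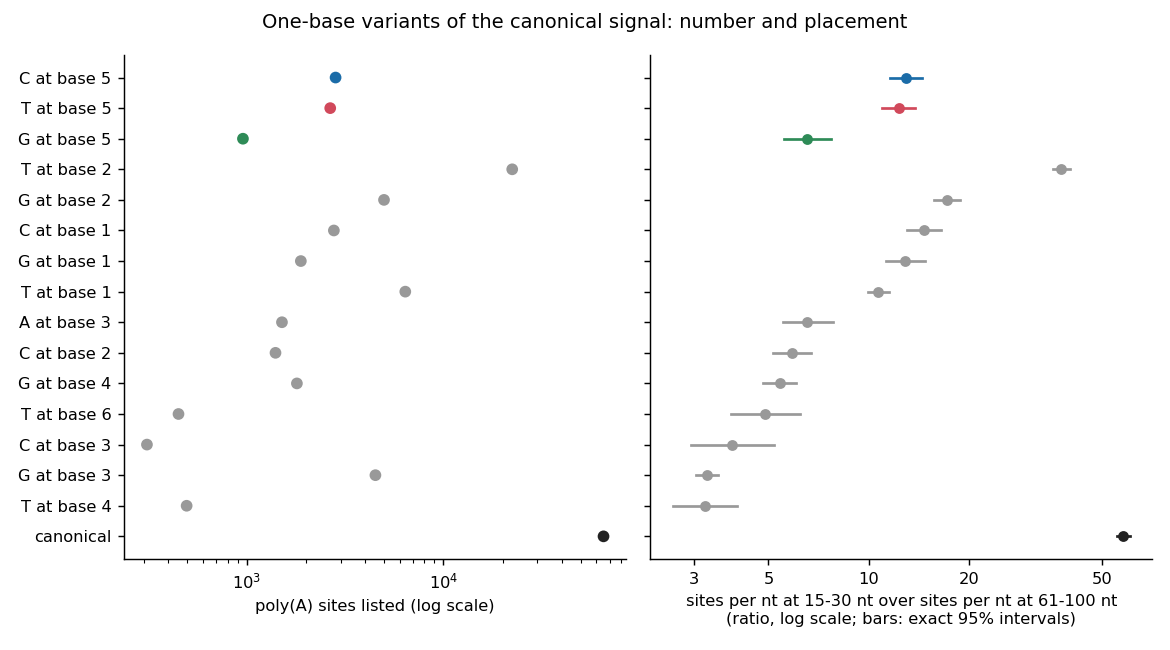
Number of sites (left, log scale) and sites per nt at 15 to 30 nt over sites per nt at 61 to 100 nt (right, log scale, exact 95% intervals as bars) for the 15 one-base variants, named by the new base and its position, and for the canonical signal. C and T at base 5 stand at 12.9 and 12.3 and G at base 5 at 6.54, while the canonical signal reaches 57.96.

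All 3 hexamers were concentrated a short way from their site, and C and T more than G. Sites per nt at 15 to 30 nt over sites per nt at 61 to 100 nt, here called the enrichment, were 12.9 for AATACA (exact binomial interval 11.6 to 14.4). They were 12.3 for AATATA (interval 10.98 to 13.8) and 6.54 for AATAGA (interval 5.57 to 7.69). The intervals of C and T overlapped, and that of G lay below both. For all other one-base variants that keep T at base 3, without ATTAAA, the enrichment was 10.6 (interval 10.2 to 11.05), and for AATAAA it was 57.96 (interval 55.6 to 60.5). The set of other one-base variants held 20201 sites with 8 hexamers. TATAAA made up 31.7% of it and AGTAAA 24.7%. Some sites may share their hexamer with a neighbouring site, and the share that may do so was highest at 61 to 100 nt. By number, 200 of the base 5 sites concerned had the hexamer at 15 to 30 nt and 196 at 61 to 100 nt. Without sites that may share a hexamer, the enrichment was 15.7 for AATACA (interval 13.9 to 17.8), 14.9 for AATATA (13.2 to 16.96) and 7.33 for AATAGA (6.18 to 8.74). It was then 13.1 for the other one-base variants (12.5 to 13.6) and 128.6 for AATAAA (120.7 to 137.1).

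Among the 15 one-base variants, C at base 5 had rank 4 by enrichment, T rank 6 and G rank 9. The values next to C were those of CATAAA (14.7, interval 13.1 to 16.5) and GATAAA (12.8, interval 11.2 to 14.7), whose intervals overlapped with it. Next to G stood AAAAAA (6.54, interval 5.52 to 7.78) and ACTAAA (5.87, interval 5.15 to 6.69). The 3 hexamers changed at base 4 or 6 had lower values, from 3.22 for AATTAA to 5.40 for AATGAA. If the level at 61 to 100 nt is taken to run through the nearer window, 92.2% of the AATACA sites at 15 to 30 nt lay above it, 91.9% of the AATATA sites and 84.7% of the AATAGA sites, against 98.3% of the AATAAA sites.

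The number of sites per nt at 61 to 100 nt varied about as much as counting error gives. It was 9.68 ± 3.22 sites per nt for AATACA (SD over 40 distances), 9.23 ± 3.29 for AATATA and 5.33 ± 2.39 for AATAGA. The square roots of those means, which give the counting error, were 3.11, 3.04 and 2.31. AATAGA made up 22.0% of the base 5 sites at 61 to 100 nt (19.5 to 24.7%), but 12.8% of those at 15 to 30 nt (11.8 to 13.8%). AATACA made up 39.9% (interval 36.9 to 43.1%) and 45.7% (interval 44.2 to 47.2%). Of all hexamer sites at 6 to 14 nt, 1.90% were base 5 sites (interval 1.66 to 2.18%). They were 4.67% of those at 15 to 30 nt (4.54 to 4.81%) and 8.51% of those at 61 to 100 nt (8.02 to 9.04%).

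**Figure D2:**
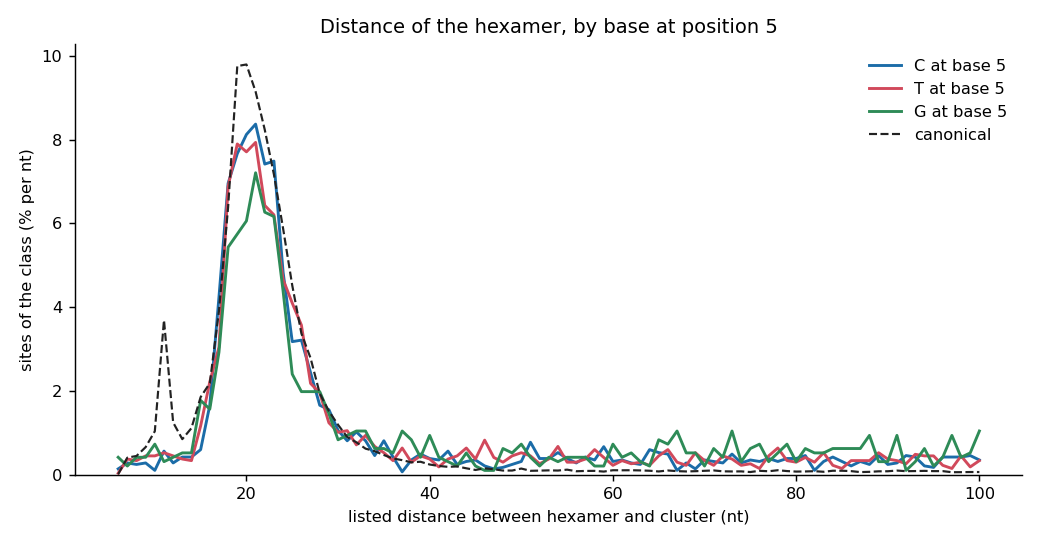
Share of the sites of each class, in percent per nt, at each listed distance between hexamer and cluster, with a line each for C, T and G at base 5 and a dashed line for the canonical signal. The 3 base 5 lines peak at 21 nt, the line of G is lowest at the peak, and the canonical line has a second peak at 11 nt.

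The hexamers peaked at the same distance but had tails of different weight. Each of the 3 was most frequent at 21 nt, with 237 sites for AATACA, 211 for AATATA and 69 for AATAGA. Median distances were 23 nt for C, 23 nt for T and 24 nt for G, and the lower quartile was 20 nt in each. The upper quartiles were 32 nt for AATACA, 35 nt for AATATA and 53 nt for AATAGA, against 25 nt for AATAAA with its median of 21 nt. Close distances of 6 to 14 nt were listed for 3.18% of base 5 sites (interval 2.78 to 3.64%), against 4.50% of the other one-base variants (interval 4.22 to 4.79%) and 9.48% of AATAAA sites (interval 9.26 to 9.71%).

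AATAAA had a narrow second peak at 11 nt, where base 5 hexamers were rare. AATACA was listed for 16 sites at 11 nt, 3 at 10 nt and 8 at 12 nt, a ratio of 2.91 to the mean of the neighbouring distances (exact binomial interval 1.27 to 6.93). At 11, 10 and 12 nt, AATATA had 14, 12 and 12 sites (ratio 1.17, interval 0.558 to 2.35) and AATAGA had 3, 7 and 4 (ratio 0.545, interval 0.0977 to 2.06). For AATAAA the ratio was 3.23 (interval 3.02 to 3.44). The interval of AATACA lay above 1, and those of AATATA and AATAGA included 1. The difference between the hexamers was not tested.

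To test differences against a spread, each measure was computed on each of the 19 autosomes and the differences were set against 0 in a 2-sided sign-flip permutation test. Benjamini-Hochberg adjustment ran over every hexamer, pair or position set of the catalogue with at least 200 autosomal sites per hexamer, not over the base 5 hexamers alone. A p-value of this kind measures how evenly a difference held across chromosomes, not how it would repeat in other cultures. The test gave a smallest p of 1e-05.

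The hexamer lay 15 to 30 nt away in 67.6% ± 2.84 of base 5 sites and in 79.7% ± 0.911 of AATAAA sites (SD, n = 19 autosomes). The difference was -12.2 percentage points ± 2.79, with 19 of 19 autosomes lower (adjusted p = 1.95e-05, permutation test). Of the 6 position sets, 100% were lower than AATAAA. By hexamer, the shares were 70.4% ± 3.26 for AATACA, 67.9% ± 5.63 for AATATA and 57% ± 4.90 for AATAGA. All 3 were below AATAAA with adjusted p = 1.71e-05 each (permutation test), as were 97% of the 33 hexamers tested.

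Against the other one-base variants the share was slightly higher. It was 67.6% ± 2.84 in base 5 sites and 65.5% ± 1.59 in the others, a difference of 2.06 percentage points ± 3.27, positive on 14 of 19 autosomes (adjusted p = 0.0180, permutation test). Of the 6 position sets, 83.3% passed this test in one direction or the other. The difference lost its call on either strand alone and when each run of sites was represented by its most downstream site, as 1.19 percentage points ± 4.68 (adjusted p = 0.321, permutation test).

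The pairs of base 5 hexamers placed G below both others. AATACA exceeded AATAGA by 13.4 percentage points ± 6.50, on 19 of 19 autosomes (adjusted p = 4.17e-05, permutation test). AATATA exceeded AATAGA by 10.9 ± 7.63, on 16 of 19 (adjusted p = 0.000168, permutation test). AATACA and AATATA differed by 2.48 ± 5.90 (adjusted p = 0.145, permutation test), with a 95% interval of -0.365 to 5.32 from the SD over autosomes. Of the 105 pairs among the one-base variants, 86.7% differed in this measure.

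Set against each of the 14 other one-base variants, C at base 5 was higher than 9, lower than 2 and not told apart from 3. These 3 were T at base 5 and the variants with C or G at base 1. T at base 5 had the same counts of 9, 2 and 3, the 3 not told apart being C at base 5 and again C or G at base 1. G at base 5 was higher than 6, lower than 7 and not told apart from ACTAAA. In the order of means it had rank 8 of 15, between TATAAA (63.8% ± 1.90) and ACTAAA (56.5% ± 7.02).

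**Figure D3:**
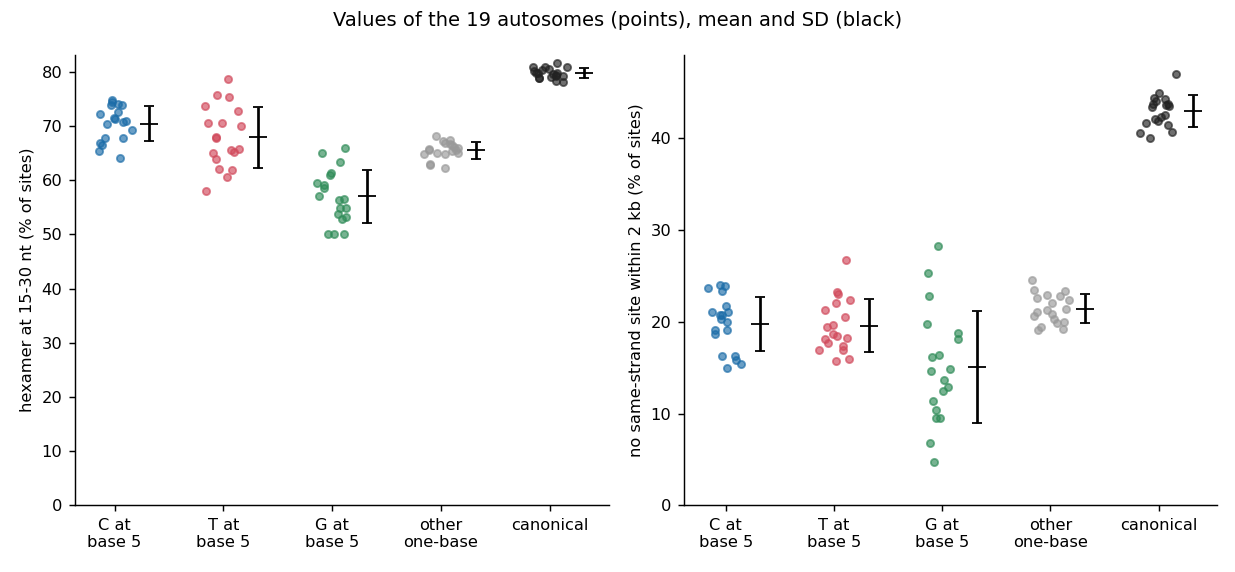
Share of sites with the hexamer at 15 to 30 nt (left) and share with no same-strand site within 2 kb (right), in percent, with a point for each of 19 autosomes and the mean and SD in black. On the left, G at base 5 lies at 50 to 65.9% and C at base 5 at 64 to 74.8%, with G below C on 19 of 19 autosomes, and all base 5 points on the right lie below the canonical ones.

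On the right side of the plot by autosome, AATAGA varied most, from 4.76 to 28.3%, and it also had the fewest sites per autosome. AATACA ran from 15.0 to 24.0% and AATATA from 15.7 to 26.8%. AATAAA ran from 40.02 to 47.0%, so it overlapped with none of the 3.

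Within the window around the peak, the mean distance moved little. Among sites with the hexamer at 10 to 35 nt it was 21.9 nt ± 0.265 for base 5 sites and 21.1 nt ± 0.0992 for AATAAA sites (SD, n = 19 autosomes). The difference was 0.800 nt ± 0.310 (adjusted p = 1.95e-05, permutation test), and 83.3% of position sets were higher. It was 0.0193 nt ± 0.219 when distances of 15 to 30 nt were used (adjusted p = 0.747, permutation test). That window leaves out the AATAAA peak at 11 nt and other distances on both sides. Why the difference was smaller there was not tested. Each of the 3 hexamers was higher than AATAAA at 10 to 35 nt, by 0.801 nt for AATACA, 0.852 nt for AATAGA and 0.804 nt for AATATA (adjusted p of 3.25e-05, 0.00138 and 1.71e-05, permutation test), as were 57.6% of hexamers.

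The other one-base variants had a mean distance of 22.1 nt ± 0.204. Base 5 sites differed from it by -0.179 nt ± 0.326 (adjusted p = 0.0366, permutation test), a test that 50% of position sets passed. At 15 to 30 nt the difference was -0.272 nt ± 0.237 (adjusted p = 0.000227, permutation test). The call was lost on either strand alone and when each run gave its last site only. Among the base 5 hexamers, 0 of the 3 pairs differed in mean distance, with adjusted p from 0.915 to 0.990 (permutation test), where 28.6% of all pairs did. The widest of their 95% intervals ran from -0.609 to 0.514 nt.

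Base 5 sites lay in crowded stretches far more often than AATAAA sites. Same-strand sites were joined into runs where the gap between their edges was at most 2 kb, and a site in no run is called lone. Lone sites were 19.05% ± 1.58 of base 5 sites and 42.95% ± 1.73 of AATAAA sites (SD, n = 19 autosomes). The difference was -23.9 percentage points ± 2.36, and 19 of 19 were lower (adjusted p = 1.95e-05, permutation test). The same held for 100% of position sets, and for each of the 3 base 5 hexamers singly (adjusted p = 1.71e-05 each, permutation test) as for 93.9% of hexamers.

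A smaller gap separated them from the other one-base variants, of which 21.4% ± 1.59 were lone. The difference was -2.38 percentage points ± 2.69, lower on 15 of 19 autosomes (adjusted p = 0.00259, permutation test). Of the position sets, 66.7% differed. On the minus strand alone it was -1.596 percentage points ± 4.32 (adjusted p = 0.154, permutation test).

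Of the 3 hexamers, G at base 5 was lone least often. The shares were 19.8% ± 2.95 for AATACA, 19.6% ± 2.91 for AATATA and 15.1% ± 6.11 for AATAGA, the lowest mean of the 15 one-base variants. AATACA exceeded AATAGA by 4.74 percentage points ± 7.78 (adjusted p = 0.0387, permutation test) and AATATA exceeded it by 4.53 ± 7.13 (adjusted p = 0.0321, permutation test), each on 15 of 19 autosomes. AATACA and AATATA differed by 0.209 ± 4.27 (adjusted p = 0.903, permutation test; 95% interval -1.85 to 2.27). Of all pairs, 51.4% differed. With runs joined at gaps of up to 5 kb, both differences from G lost their call, at 2.62 and 1.41 percentage points (adjusted p = 0.186 and 0.430, permutation test).

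**Figure D4:**
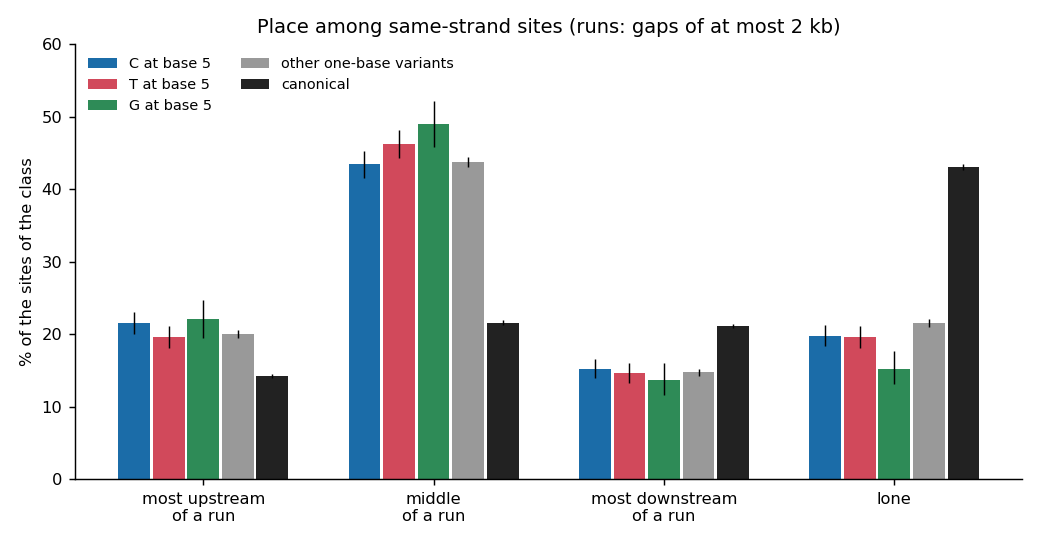
Percent of the sites of each class that are the most upstream, a middle or the most downstream site of a run, or lone, with 95% Wilson intervals as bars. Middle sites make up 43.4 to 49.0% of the 3 base 5 classes and 21.6% of the canonical class, and lone sites 15.3 to 19.8% and 43.1%.

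Inside runs, base 5 sites were mostly not the last. Middle sites made up 45.4% of the class (interval 44.2 to 46.6%), the most upstream 20.8% (interval 19.8 to 21.8%) and the most downstream 14.8% (interval 13.9 to 15.7%). For AATAAA these shares were 21.6%, 14.2% and 21.1%. Of the sites at either end of a run, 42.1% ± 5.03 of base 5 sites and 59.8% ± 1.43 of AATAAA sites stood at the downstream end. The difference was -17.7 percentage points ± 5.42, lower on 19 of 19 autosomes (adjusted p = 1.95e-05, permutation test), as in 100% of position sets and 100% of hexamers. With runs joined at gaps of up to 0.5 kb it was -10.99 percentage points ± 5.38 (adjusted p = 1.95e-05, permutation test).

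In this respect the class was not told apart from other one-base variants, of which 42.3% ± 2.68 of end sites were downstream. The difference was -0.170 percentage points ± 6.53 (adjusted p = 0.909, permutation test; 95% interval -3.32 to 2.98), where 33.3% of position sets differed. The share was 41.8% ± 6.89 for AATACA, 43.4% ± 9.51 for AATATA and 39.97% ± 13.3 for AATAGA. Of their 3 pairs 0 differed, with adjusted p from 0.518 to 0.728 (permutation test), against 22.9% of all pairs. Their 95% intervals together reached from -7.09 to 11.9 percentage points.

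Where a base 5 site was not the last of its run, the last site most often carried AATAAA. This was so for 51.4% of 4268 such sites (interval 49.9 to 52.9%). ATTAAA ended the run for 18.5% (interval 17.3 to 19.7%), another base 5 site for 5.15% (interval 4.53 to 5.86%) and a site with no hexamer for 6.35% (interval 5.66 to 7.12%). For the other one-base variants that were not last, AATAAA ended the run in a similar share, 51.6% (interval 50.7 to 52.4%). For AATAAA sites that were not last, AATAAA ended the run in 57.2% (interval 56.5 to 57.8%). Of all sites of the catalogue, at any place in a run or lone, 44.95% carried AATAAA. The share of AATAAA among the last sites of all runs, a closer comparison, was not computed. Only gaps define a run, so 1 run may span more than 1 gene.

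Most runs with a base 5 site had a single one. Counting lone sites as runs of 1, 4585 autosomal runs held 1, 602 held 2, 99 held 3, 20 held 4, 10 held 5, 3 held 6 and 1 held 7. The fullest was found on chromosome 6, plus strand, from 17615437 to 17617157 (mm9), a stretch of 1721 nt with 13 sites. AATATA was listed for 7 of them, ATTAAA for 2 and AATAAA for 0. Of the 7, 5 may share a hexamer with a neighbour by the count described below, so 7 sites need not be 7 signals. The distances of the 7 AATATA sites were 23, 23, 18, 91, 19, 61 and 98 nt in the direction of transcription, so 4 of them had the hexamer at 15 to 30 nt.

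The widest and the most isolated sites of each hexamer were chosen by a rule. The widest AATATA cluster with its hexamer at 15 to 30 nt was on chromosome 6, plus strand, from 67234206 to 67234638, 433 nt wide, in the middle of a run of 34 sites. For AATACA it was on chromosome 2, plus strand, from 84527241 to 84527410 (170 nt, run of 11), and for AATAGA on chromosome 14, plus strand, from 22664673 to 22664757 (85 nt, run of 4). The most isolated AATATA site was 1 nt wide at 30197192 on the plus strand of chromosome 4, with 962927 nt to the nearest listed same-strand site. The most isolated AATAGA site, at 6997221 on the minus strand of chromosome 2, was also 1 nt wide, and their hexamers were 78 and 79 nt away. The most isolated AATACA site was on chromosome 17, plus strand, from 39179539 to 39179540, with its hexamer at 17 nt. Positions are those of mm9, with starts taken as counted from 0 in the file and printed from 1. Genes at these positions were not analysed. Runs and gaps count listed sites only. Site identifiers reached at least pas337296 with 145179 sites listed, and whether clusters were left out of the list is not stated.

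Another same-strand site within 100 nt was present for 32.4% ± 2.62 of base 5 sites and 15.4% ± 1.01 of AATAAA sites (SD, n = 19 autosomes). The difference was 17 percentage points ± 2.42, higher on 19 of 19 (adjusted p = 1.95e-05, permutation test), as in 100% of position sets. Singly, AATACA had 30.4% ± 4.08, AATATA 33.9% ± 4.93 and AATAGA 34.3% ± 5.84, each above AATAAA (adjusted p = 1.71e-05, permutation test), like 93.9% of hexamers. With a limit of 50 nt the difference of the class from AATAAA was 9.06 percentage points ± 2.14 (adjusted p = 2e-05, permutation test). The other one-base variants stood at 32.3% ± 1.80, a difference of 0.148 percentage points ± 2.52 (adjusted p = 0.835, permutation test; 95% interval -1.07 to 1.36), where 66.7% of position sets differed.

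C at base 5 had such a neighbour less often than G. AATACA minus AATAGA was -3.87 percentage points ± 6.45, negative on 13 of 19 autosomes (adjusted p = 0.0324, permutation test). With a limit of 200 nt the difference was -6.88 ± 7.82 (adjusted p = 0.00192, permutation test). The call was lost with a limit of 50 nt, with the hexamer at 15 to 30 nt and without clusters wider than 50 nt. Against AATATA the difference was -3.45 ± 7.07 (adjusted p = 0.0906, permutation test; 95% interval -6.86 to -0.0454), negative on 14 of 19. AATATA and AATAGA differed by -0.419 ± 8.21 (adjusted p = 0.902, permutation test; 95% interval -4.37 to 3.54). Of all pairs, 61% differed.

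**Figure D5:**
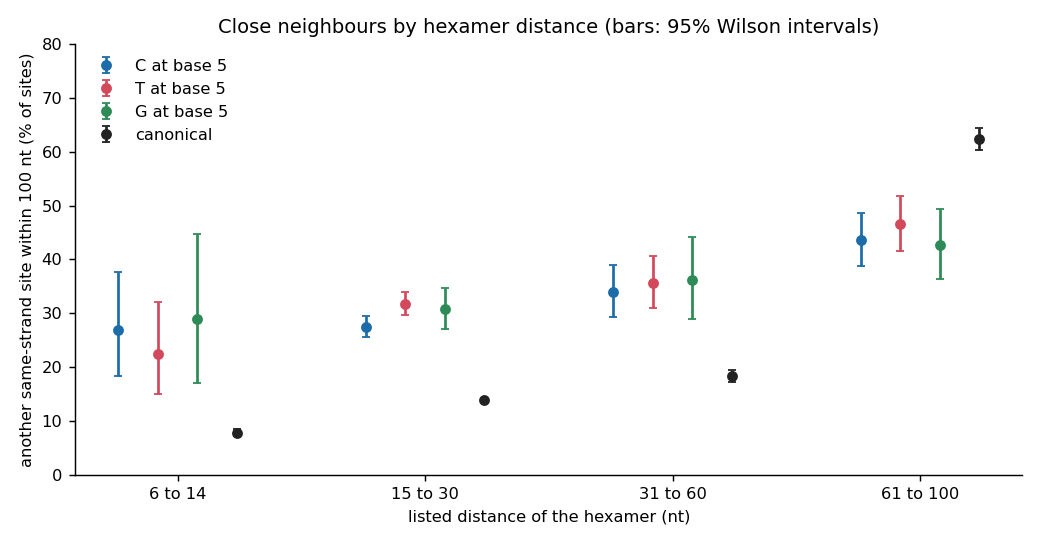
Percent of sites with another same-strand site within 100 nt, by listed distance of the hexamer in nt, for C, T and G at base 5 and for the canonical signal, with 95% Wilson intervals as bars. The base 5 values lie at 22.5 to 28.9% at 6 to 14 nt and at 42.7 to 46.6% at 61 to 100 nt, and the canonical value is the lowest of the 4 at 6 to 60 nt and the highest at 61 to 100 nt.

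Close neighbours were more frequent where the hexamer was far away. Of base 5 sites with the hexamer at 15 to 30 nt, 29.7% had a same-strand site within 100 nt (interval 28.3 to 31.03%), and of those at 61 to 100 nt, 44.6% (interval 41.5 to 47.7%). For AATAAA sites the values were 13.9% and 62.4%, and this split was not tested over autosomes. A pair of adjacent sites with the same hexamer was counted as possibly sharing it where the positions allowed by both cluster widths overlapped. The sources used here do not state the point from which distances run. By that count 4.58% of base 5 sites with the hexamer at 15 to 30 nt, and 20.2% of those at 61 to 100 nt (17.8 to 22.9%), may share their hexamer with a neighbour, against 2.39% and 56.0% of AATAAA sites.

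The nearest site had mixed hexamers, and most cases of the same variant may share a single hexamer. Among the 2097 base 5 sites with a neighbour within 100 nt, the nearest one carried the same hexamer in 23.6% (interval 21.8 to 25.5%) and another base 5 hexamer in 3.43% (interval 2.74 to 4.30%). It carried AATAAA in 18.3% (interval 16.7 to 20.0%), ATTAAA in 11.3% (interval 10.1 to 12.8%) and no hexamer in 11.5% (interval 10.2 to 13.0%). Of the 495 cases with the same hexamer, 428 may share a single hexamer, which was 86.5% (interval 83.2 to 89.2%). In the other one-base variants the nearest site had the same hexamer in 26.7% (interval 25.6 to 27.7%). For AATAAA sites it did so in 58.6% (interval 57.7 to 59.6%). Possible sharing with the nearest site was counted here for base 5 sites only, and AATAAA made up 44.95% of all sites.

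Placement was also compared by place in the run. At the upstream end of a run, 72.95% of base 5 sites had the hexamer 15 to 30 nt away (interval 70.5 to 75.3%). In the middle 66.0% did (interval 64.2 to 67.7%), at the downstream end 69.2% (interval 66.2 to 72.1%), and when lone 65.04% (interval 62.3 to 67.7%). In the same order, the other one-base variants had 69.0, 63.6, 67.4 and 64.8%, and they too were highest at the upstream end. AATAAA sites had 82.0, 79.8, 83.3 and 77.0%. Lone AATAGA sites had the lowest share, 50.7% of 146 (interval 42.7 to 58.7%), against 68.8% of 561 lone AATACA sites (interval 64.9 to 72.5%) and 65% of 520 lone AATATA sites (interval 60.8 to 69.0%). These splits were not tested over autosomes. Lone base 5 sites had a median width of 5 nt, and 21.4% were of 1 nt (interval 19.2 to 23.7%). Lone sites of the other one-base variants had the same median and 20.9% of 1 nt (interval 19.8 to 22.2%), and lone AATAAA sites a median of 7 nt and 14.1% (interval 13.7 to 14.5%).

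Base 5 clusters as a whole were narrower than AATAAA clusters, by an amount that varied with the sites used. The median base 5 cluster measured 9 nt, with quartiles of 3 and 21 nt, against 10 nt and quartiles of 4 and 21 nt for AATAAA. Mean log2 width was 2.96 ± 0.13 in base 5 sites and 3.13 ± 0.06 in AATAAA sites, a difference of -0.17 ± 0.13, lower on 18 of 19 autosomes (adjusted p = 0.000123, permutation test), as in 66.7% of position sets. It was -0.04 ± 0.11 without clusters of 1 nt (adjusted p = 0.204, permutation test) and -0.42 ± 0.23 when each run gave its last site only (adjusted p = 1.85e-05, permutation test). Clusters of 1 nt made up 13.9% of base 5 sites (interval 13.1 to 14.8%) and 9.94% of AATAAA sites (interval 9.71 to 10.2%), while 5.62% and 4.02% were wider than 50 nt.

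All 3 hexamers were narrower than AATAAA on the log2 scale, with differences of -0.18 ± 0.13 for AATACA, -0.11 ± 0.20 for AATATA and -0.30 ± 0.18 for AATAGA (adjusted p of 1.71e-05, 0.0310 and 1.71e-05, permutation test), where 39.4% of hexamers were. The other one-base variants had a mean of 3.00 ± 0.07, and base 5 sites differed from it by -0.04 ± 0.16 (adjusted p = 0.311, permutation test; 95% interval -0.12 to 0.03), with 16.7% of position sets passing. AATAGA clusters were narrower than AATACA clusters, which exceeded them by 0.12 ± 0.16 (adjusted p = 0.00709, permutation test), and than AATATA clusters, which exceeded them by 0.19 ± 0.22 (adjusted p = 0.00464, permutation test). AATACA and AATATA differed by -0.07 ± 0.21 (adjusted p = 0.243, permutation test; 95% interval -0.17 to 0.03). Of all pairs, 32.4% differed. Both differences from G lost their call without clusters of 1 nt, without those wider than 50 nt, and when each run gave its last site only.

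Sites on the opposite strand were compared as well. A site was counted as having divergent partners only where opposite-strand sites lay 1 to 3 kb away on the upstream side and none on the downstream side, and as convergent in the opposite case. For AATAGA 131 sites were divergent and 84 convergent, so 60.9% were divergent (interval 54.3 to 67.2%). For AATACA the counts were 303 and 266 (53.3%, interval 49.1 to 57.3%), and for AATATA 243 and 265 (47.8%, interval 43.5 to 52.2%). The intervals of G and T do not overlap, and the difference between them was not tested over autosomes. The class as a whole had 52.4% (interval 49.7 to 55.1%), the other one-base variants 51.9% (interval 50.4 to 53.4%) and AATAAA 53.9% (interval 53.0 to 54.8%). A cluster that overlapped with one on the opposite strand was found for 1.32% of base 5 sites (interval 1.07 to 1.63%). It was found for 1.38% of the other one-base variants (interval 1.23 to 1.55%) and 1.78% of AATAAA sites (interval 1.68 to 1.88%).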

How the data were processed

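Poly(A) RNA 3' ends were read by 2P-seq in 12 libraries. The submitters' processing notes name Trimmomatic, STAR, bedtools and the mm9 build, without versions. How clusters were made, from which libraries, how internal priming was handled and which hexamer was tried first are not stated in the labels or the file. The other values deposited by the authors are, per the file headers, positions, strands, hexamers and distances in nt, with no count per library. Depth is therefore unknown, and no comparison between groups was made.

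The members, measures and windows were chosen with earlier results of these data known. Width was end minus start. The base 5 hexamers, singly and together, were set against AATAAA and against the 8 other one-base variants that keep T at base 3, without ATTAAA. The 6 measures were tested over 19 autosomes by a 2-sided sign-flip permutation test with 100000 resamples (seed 1). Adjustment ran over 198 tests of hexamers against AATAAA, 630 of pairs and 72 of position sets, with a threshold of 0.05. Intervals over sites are 95% Wilson, or exact binomial for ratios. Intervals of differences use the SD over autosomes. Alternatives were other run gaps, neighbour limits, distance windows and cluster widths, each strand alone, 1 site per run and, chosen after seeing the data, enrichment without sites that may share a hexamer. Hexamer sharing was planned as equal hexamer positions, and it was taken as overlapping ranges because the anchor of the distance is not given in the sources used here. Sites named were, per hexamer, the widest autosomal cluster at 15 to 30 nt and the most isolated one, plus the run with the most base 5 sites. The scripts were tested on simulated data. They ran in Python 3.11.15 with numpy 2.4.6 and scipy 1.17.1, pandas 2.3.3 for tables and matplotlib 3.10.9 for plots. The reference tables, of another build, were not used, so sequence around the sites and genes are not given.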

Additional observations from a re-analysis of the deposited data

Results flagged for a closer look

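The mitochondrial genome lay outside the comparisons. It held 80 sites, 66 of them with a hexamer, and 7 were listed with a base 5 hexamer, 6 with AATATA and 1 with AATAGA. These 7 sites were singled out because no comparison used them. Whether their hexamers act as poly(A) signals was not tested. Their hexamers were 22 to 88 nt away.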

How the results depend on the processing

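No paired analysis was possible because no column of the file holds a value per library. Of 150 alternative values for 35 results, 116 kept their direction and side of the threshold or their interval, 20 kept the direction and lost the call, 10 changed sign and 4 moved. Each of the 10 was a difference that had not passed the test. Enrichment of the base 5 hexamers stayed within its interval with a tail from 41 nt and with clusters up to 50 nt wide. Without sites that may share a hexamer, a setting chosen after seeing the data, it was 15.7 for C, 14.9 for T, 13.1 for the other one-base variants and 128.6 for AATAAA, all outside their intervals, and 7.33 for G, inside its own.

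Differences that kept their call but moved by over 1.5 times were log2 width against AATAAA (-0.42 with 1 site per run), the downstream share against AATAAA (-10.99 points at 0.5 kb), neighbours against AATAAA (9.06 points at 50 nt) and between C and G (-6.88 points at 200 nt), and mean distance against the other one-base variants (-0.272 nt at 15 to 30 nt).

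Against AATAAA, the mean distance difference was 0.0193 nt at 15 to 30 nt, and the log2 width difference -0.036 without clusters of 1 nt. Against the other one-base variants, the share at 15 to 30 nt differed by 1.19 percentage points with 1 site per run, 2.42 for plus-strand and 1.89 for minus-strand sites. Mean distance differed by -0.173 nt with 1 site per run, -0.203 nt for plus-strand and -0.133 nt for minus-strand sites. The lone share differed by -1.60 points on the minus strand. The downstream share differed by 0.456 points at a run gap of 0.5 kb and 0.570 on the minus strand, and neighbours by -0.0221 points in clusters up to 50 nt wide and -0.656 on the minus strand.

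Between C and G at base 5, mean distance differed by 0.0738 nt at 15 to 30 nt and the lone share by 2.62 points at 5 kb. Neighbours differed by -2.06 points at a limit of 50 nt, -3.73 with the hexamer at 15 to 30 nt and -2.98 in clusters up to 50 nt wide. Log2 width differed by 0.028 without clusters of 1 nt, 0.13 with 1 site per run and 0.10 in clusters up to 50 nt wide. Between T and G, mean distance differed by 0.0758 nt at 15 to 30 nt and 0.0113 nt in clusters up to 50 nt wide, and the lone share by 1.41 points at 5 kb. Neighbours differed by 0.452 points with the hexamer at 15 to 30 nt and 0.170 in clusters up to 50 nt wide, and log2 width by 0.11, 0.24 and 0.15 in the order given for C and G. Between C and T, the downstream share differed by 0.564 points at 5 kb. The causes were not tested; 1 site per run and single strands use fewer sites.

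Depth is unknown, no library can be set against another, and AATAGA has the fewest sites per autosome of the 3 hexamers, which limits its comparisons.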
